A study of Caenorhabditis elegans with 6 samples.

Results

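Cytochrome P450 genes were followed in pooled cells of the first larval stage of Caenorhabditis elegans, a nematode. The members are the gene rows of the count table whose RefSeq symbol starts with cyp-, together with daf-9, which is a P450 under another name, and emb-8, the reductase that serves these enzymes. The rule found 65 members among 14605 worm gene rows, 64 P450 genes of 24 subfamilies and emb-8. The RefSeq gene list of the same assembly holds 82 genes under this rule, and the other 17 were not analysed here (6 annotated as pseudogenes and 11 as protein coding, among them the mitochondrial type cyp-44A1).

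Intestinal cells (3 libraries) were compared with other cells dividing in that stage, L1 (3 libraries, called non-intestinal). Each library came from a pool of 500 cells, which the series describes as 4N. How the cells were isolated is not given in the sources used here. All animals, in both groups, carried the transgene ccyIS27. In it elt-2p, the promoter of the intestinal gene elt-2, drives the red reporters mCherry-PH and, after a P2A peptide, H2B-mCherry. No untransformed or otherwise treated animals are among the 6 libraries, and the labels do not say which lineages the non-intestinal pools hold.

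P450 enzymes are haem proteins of the endoplasmic reticulum, or in some cases of mitochondria, that insert an oxygen atom into small molecules. The reaction draws electrons from NADPH through a P450 reductase, and for some substrates through cytochrome b5. Substrates include foreign compounds, fatty acids and sterols, and the worm intestine is a main site of detoxification and fat metabolism. P450 genes are grouped by sequence into subfamilies, named by number and letter, and into broader clans, of which clan 2 holds the cyp-14 and cyp-33 to cyp-36 families, clan 3 the cyp-13, cyp-25 and cyp-43 families, and clan 4 the cyp-29, cyp-31, cyp-32, cyp-37 and cyp-42 families.

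Depth limited what could be seen of these genes, many of which had few counts. Libraries held 1222704 to 21040813 counts on worm genes, with the fewest in replicate 3 in both groups. Levels are given in CPM, counts scaled to TMM-adjusted library totals. The limit that a count of 0 allows is taken as 3 counts, or 2.40 CPM in intestinal replicate 3 and 0.172 CPM in intestinal replicate 2. Below, a group is at the floor where none of its libraries exceeded 3 counts. Folds against it use 3 counts in each of its libraries, since a fitted fold change against such a group is no bound. They are lower bounds, written as at least, only where the group had 0 counts in each library. The intestinal label was checked on a marker list of 9 genes, of which 6 were tested and 6 were higher in intestinal cells, where 13.5% of all tested genes were. One of these genes is elt-2, whose promoter drives the reporter. The markers elt-2, elt-7 and pgp-1 had 10 or more counts in fewer than 2 non-intestinal libraries. Testing only genes with enough counts favours higher calls among such genes. The summed level of the list was 6020 to 6810 CPM in intestinal and 42.4 to 166 CPM in non-intestinal libraries. The early endoderm gene end-3, untested, had 0 counts in each intestinal library and 0, 0 and 10 counts in the non-intestinal libraries. In pooled cells, fewer cells of a type and less RNA per cell cannot be told apart, and this holds for each difference below.

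The P450 genes took a larger part of the transcripts in intestinal cells. The 64 genes held 0.0479%, 0.0538% and 0.0438% of worm gene counts in intestinal replicates 1, 2 and 3. The non-intestinal shares, in the same order here and below, were 0.00902%, 0.00805% and 0.0113%. The groups did not overlap, and the widest 95% Wilson interval, that of intestinal replicate 3, ran from 0.0402% to 0.0476% (counting error only). The mean share was 0.0485% ± 0.00505 in the intestinal group and 0.00945% ± 0.00167 in the other (SD, n = 3 per group), a ratio of 5.13. Without cyp-35C1, the member with the most counts, this ratio was 4.30. At least 1 count was found for 50, 50 and 31 of the 64 genes in intestinal replicates 1, 2 and 3, and for 30, 38 and 22 in the non-intestinal ones.

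**Figure D1:**
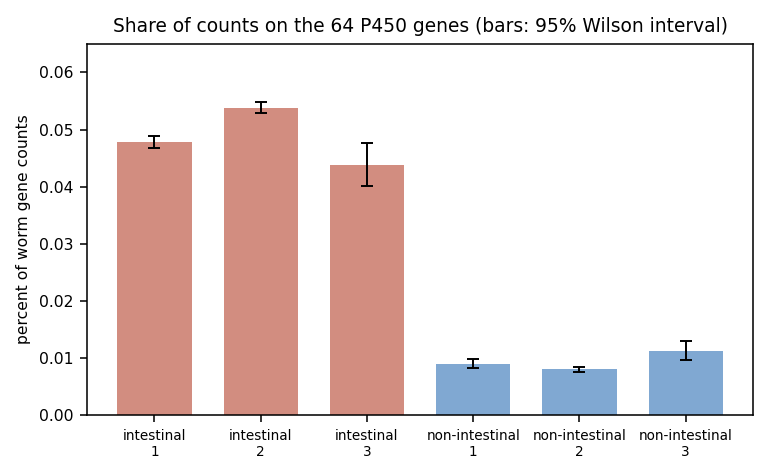
Share of worm gene counts (percent) on the 64 P450 genes in each of the 6 libraries; the bars start at 0 and error bars are 95% Wilson intervals for counting error. The 3 intestinal libraries lie between 0.0438% and 0.0538% and the 3 non-intestinal libraries between 0.00805% and 0.0113%.

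Of the 65 members, 29 had enough counts to be tested and 14 of them were called, at an adjusted p under 0.05 by the quasi-likelihood test of edgeR over all genes. In intestinal cells 13 were higher and 1 was lower, where 13.5% of all 9203 tested genes were higher, 7.64% were lower and 21.2% were called in either direction. The filter favours this outcome, since 19 of the 29 tested members had 10 or more counts in fewer than 2 non-intestinal libraries. Among the members called higher, this holds for all but cyp-35A2 and emb-8. Where such a gene had 0 counts in each non-intestinal library, its direction was fixed by the filter. A fit without a filter takes in each of the 65 members. It called 14 of them, 13 higher (20.0%) and 1 lower (1.54%), where 9.85% of all 14605 genes were higher, 6.51% lower and 16.4% called. Of the 14 members called with the filter, 12 were called without it, cyp-13A7 and cyp-25A1 were not, and the untested cyp-35D1 and cyp-13A6 came in. Under library totals alone, 1062 of all tested genes were higher and 1337 lower, against 1246 and 703 with TMM factors, and 12 members were higher and 1 lower. By clan, 6 genes were called higher in clan 2 (38 members, 15 tested), 4 in clan 3 (16 members, 9 tested) and 2 in clan 4 (10 members, 4 tested). The called P450 genes belonged to 10 subfamilies.

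**Figure D2:**
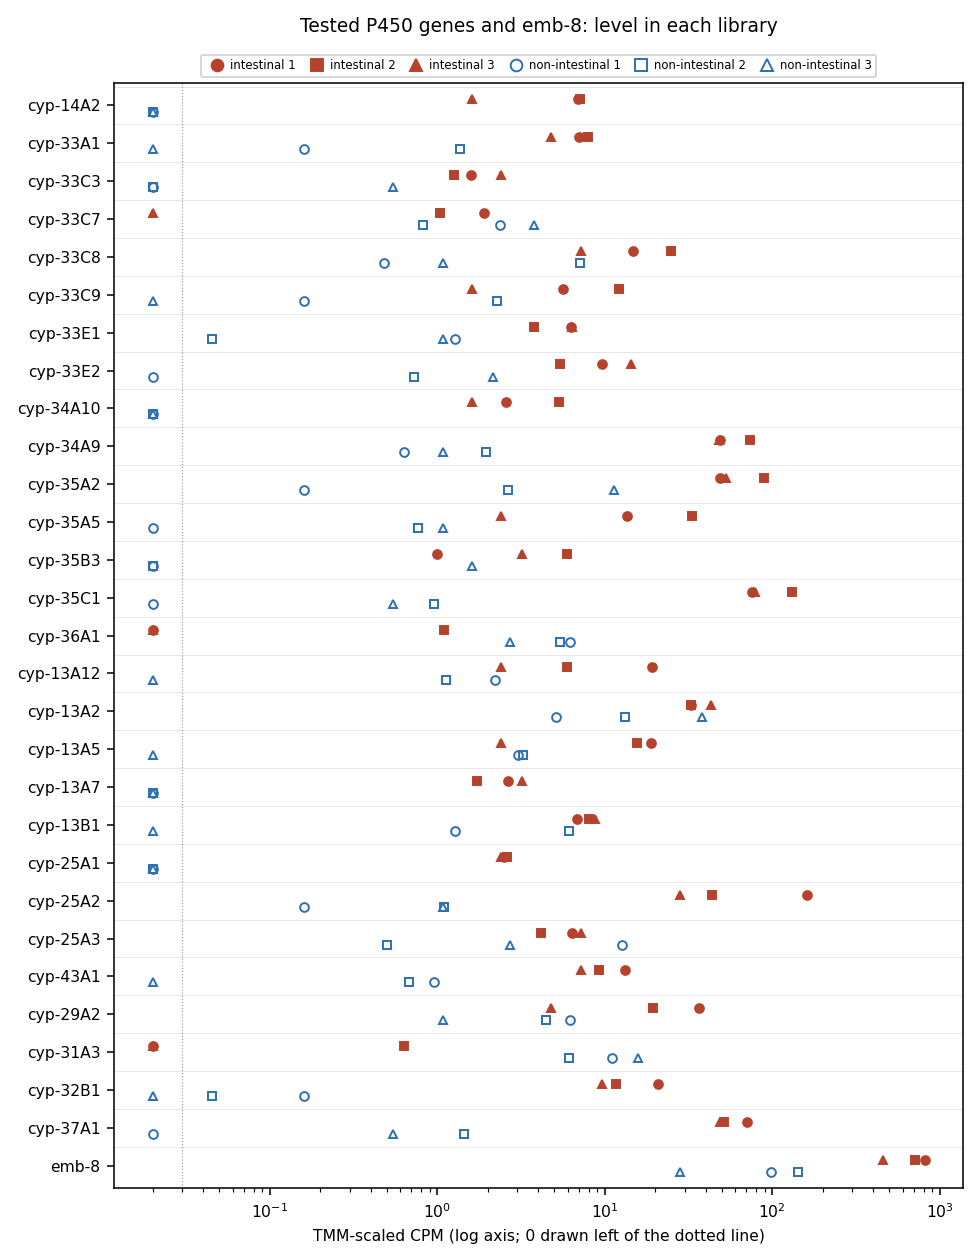
TMM-scaled CPM (log axis) of the 29 tested members in each library, with filled symbols for the 3 intestinal and open symbols for the 3 non-intestinal libraries; values of 0 are drawn left of the dotted line. In 20 members each intestinal library lies above each non-intestinal library, an order that 22% of all tested genes show, while cyp-31A3 and cyp-36A1 show the opposite order.

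The reductase gene emb-8 (K10D2.6, chromosome III, 5196680 to 5199677, minus strand) was higher in intestinal cells. This enzyme passes electrons from NADPH to microsomal P450 enzymes. Its level was 811, 707 and 458 CPM in intestinal replicates 1, 2 and 3, and 98.8, 143 and 28.1 CPM in the non-intestinal ones. The lowest intestinal library thus stood above the highest non-intestinal one, a log2 fold change of 2.86 ± 0.61 SE (adjusted p = 0.0086, edgeR). The gene shares 38 exonic bases with moc-6 on the opposite strand, which was lower in intestinal cells (log2 fold change −2.88, edgeR adjusted p = 0.035), a call that held in 1 of the 6 fits that left out a library. Counting by strand is not stated, and the part of shared reads in either value was not tested.

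Partners of the P450 reaction were higher as well. The list of electron transfer partners and haem-binding helpers held 4 genes, of which 3 were tested and 3 rose, where 13.5% of all tested genes did, while hpo-19 was not analysed here. The cytochrome b5 gene cytb-5.1 had 699, 514 and 347 CPM in intestinal and 23.3, 34.9 and 23.8 CPM in non-intestinal libraries, a log2 fold change of 4.24 ± 0.53 SE (adjusted p = 0.00065, edgeR). A second cytochrome b5 gene, cytb-5.2, had 312, 379 and 283 CPM against 58.6, 98.4 and 74.7 CPM, a log2 fold change of 2.07 ± 0.47 SE (adjusted p = 0.011, edgeR). The groups did not overlap for either gene. The gene vem-1 encodes the worm relative of mammalian membrane-associated progesterone receptor components, haem-binding proteins known in mammals to bind P450 enzymes. It had 185, 275 and 236 CPM against 19.1, 31.9 and 13.5 CPM, a log2 fold change of 3.42 ± 0.57 SE (adjusted p = 0.0024, edgeR). All 3 calls held whichever library was left out. The median log2 fold change of these 3 genes was 3.42, where that of all tested genes was −0.34. The epoxide hydrolase genes are ceeh-1 and ceeh-2, whose products open the epoxides that P450 enzymes make from fatty acids. Neither was called in the main edgeR fit (filter, TMM factors, all 6 libraries). For ceeh-2 the counts were 224, 169 and 2 in intestinal and 0, 0 and 2 in the other libraries (edgeR adjusted p = 0.056). Its intestinal group mean was 13.4-fold the non-intestinal level of 3 counts. For ceeh-1 the log2 fold change was 1.09 (edgeR adjusted p = 0.59).

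**Figure D3:**
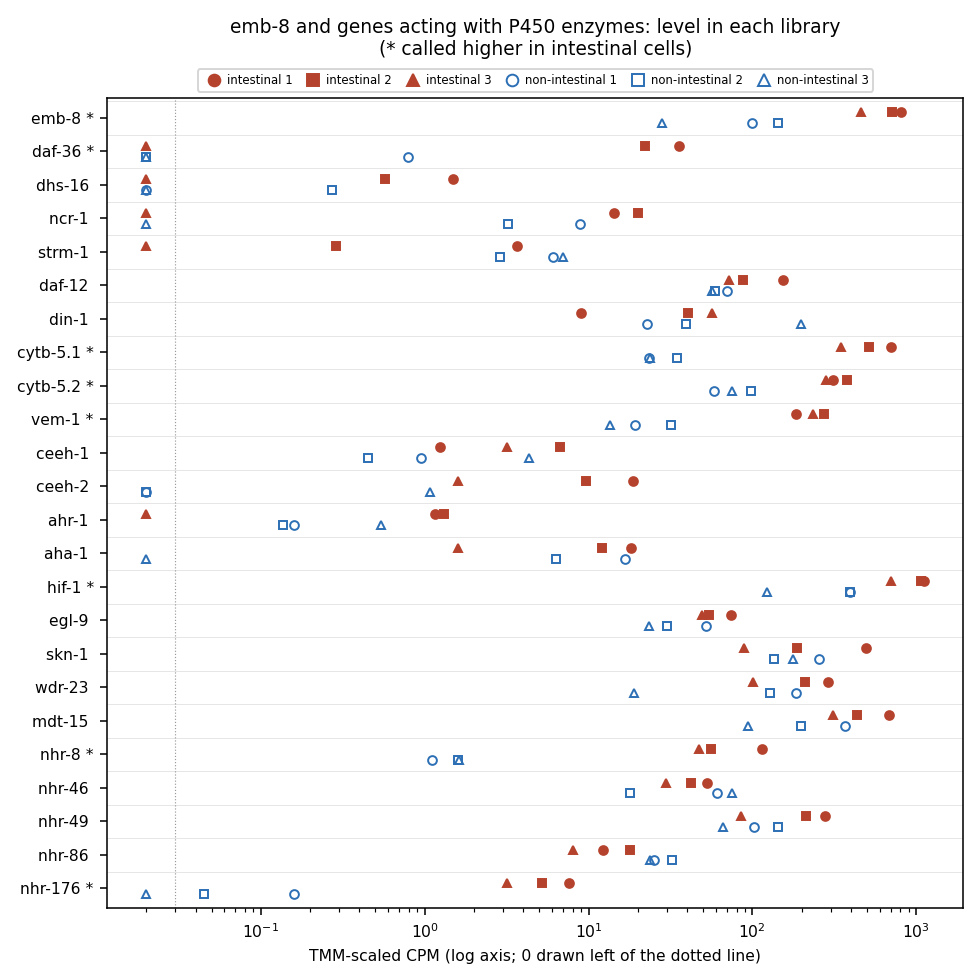
TMM-scaled CPM (log axis) in each library of emb-8 and of the listed sterol hormone, electron transfer, epoxide hydrolase and regulator genes; an asterisk marks genes called higher, filled symbols intestinal and open symbols non-intestinal libraries. Each intestinal library lies above each non-intestinal one for emb-8, cytb-5.1, cytb-5.2, vem-1, ceeh-2, hif-1, nhr-8, nhr-176 and, narrowly, daf-12. Of all tested genes, 22% show this order. The opposite order is seen for nhr-86 (12.3, 17.8 and 7.99 against 25.1, 32.3 and 23.8 CPM, not called), and the levels of skn-1 overlap.

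Clan 2 held the cyp-35 genes, a family known in the worm for induction by foreign compounds. The gene cyp-35C1 (C06B3.3, chromosome V, 13896663 to 13898487) rose, with 76.0, 131 and 79.1 CPM in intestinal replicates 1, 2 and 3, and 0, 0.952 and 0.541 CPM in the non-intestinal ones. Counts were 916, 2272 and 99 against 0, 21 and 1, so that the non-intestinal level rests mostly on 21 counts. The log2 fold change was 7.39 ± 1.06 SE (adjusted p = 0.0011, edgeR), the lowest adjusted p among the members. In cyp-35A, a subfamily tied in the worm to fat storage, both tested members rose and 3 of 5 were not tested. The level of cyp-35A2 was 48.4, 89.4 and 52.7 CPM in intestinal and 0.159, 2.63 and 11.4 CPM in non-intestinal libraries, a log2 fold change of 3.87 ± 1.14 SE (adjusted p = 0.034, edgeR). Its groups did not overlap, but the non-intestinal libraries differed widely among themselves. For cyp-35A5 the levels were 13.5, 33.3 and 2.40 CPM against 0, 0.771 and 1.08 CPM, a log2 fold change of 4.85 ± 1.43 SE (adjusted p = 0.034, edgeR). Intestinal replicate 3, with 3 counts, lay near the non-intestinal values.

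The remaining cyp-35 genes were not called. The gene cyp-35B3 had 12, 103 and 4 counts in intestinal and 0, 0 and 3 counts in the other libraries (edgeR adjusted p = 0.26). Its groups overlap, with 0.995 CPM in intestinal replicate 1 and 1.62 CPM in non-intestinal replicate 3. Its intestinal group mean was 4.52-fold the non-intestinal level of 3 counts. The untested cyp-35B1, a gene reported in the worm to respond to the insulin pathway factor DAF-16, had 105, 75 and 0 counts against 0, 3 and 0. The untested cyp-35B2 had 15, 97 and 0 counts and cyp-35A3 30, 142 and 0 counts, and neither exceeded 2 counts in a non-intestinal library. For these 3 genes the counts lie in intestinal replicates 1 and 2, and replicate 3 had none. The gene cyp-35D1, whose product is known in the worm to oxidise the drug thiabendazole, had 14, 26 and 25 counts against 0 in each non-intestinal library, or 1.16, 1.49 and 20.0 CPM. It was at least 10.1-fold higher on the group mean, which rests on replicate 3, and without a filter its edgeR adjusted p was 0.0027. The untested cyp-35A1 had 7, 47 and 1 counts against 0, 15 and 0, and cyp-35A4 had 5 counts in all.

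In cyp-34A both tested members of 8 rose, and both passed the filter only through their intestinal counts. The gene cyp-34A9 (B0213.15, chromosome V, 3968134 to 3970540), another reported DAF-16 responsive gene, had 49, 73.3 and 47.9 CPM in intestinal and 0.635, 1.95 and 1.08 CPM in non-intestinal libraries. The 3 intestinal libraries lay close together, and the log2 fold change was 5.45 ± 0.82 SE (adjusted p = 0.0014, edgeR). The neighbouring cyp-34A10 had 31, 93 and 2 counts against 0 in each non-intestinal library and was at least 4.26-fold higher (edgeR adjusted p = 0.021). The other 6 cyp-34A genes had at most 27 counts in a library. The single tested cyp-14A gene, cyp-14A2 on the X chromosome, had 83, 123 and 2 counts against 0 in each non-intestinal library, at least 6.96-fold higher (edgeR adjusted p = 0.016). Its subfamily member cyp-14A5 on chromosome V had the opposite distribution, with 0 counts in each intestinal and 27, 32 and 1 counts in the non-intestinal libraries, at least 2.23-fold lower on the group mean. It was not tested under the filter, and without a filter its edgeR adjusted p was 0.072. The untested cyp-14A1 had 15, 22 and 0 counts and cyp-14A4 11, 26 and 0 counts in intestinal libraries, and both had 0 in each non-intestinal library.

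No cyp-33 gene was called in the main edgeR fit, and 7 were tested. Of these, 6 passed the filter only through their intestinal counts, all but cyp-33C7. In cyp-33E, cyp-33E2 is known in the worm to make signalling epoxides from eicosapentaenoic acid and to act in the pharynx. It had 9.62, 5.40 and 14.4 CPM in intestinal and 0, 0.725 and 2.16 CPM in non-intestinal libraries, a log2 fold change of 3.53 ± 1.42 SE (adjusted p = 0.10, edgeR). The groups did not overlap, and DESeq2 called the gene (DESeq2 adjusted p = 0.010), as it did cyp-33A1 (0.023). Under a stricter filter edgeR called cyp-33E2 as well (log2 fold change 3.65, edgeR adjusted p = 0.045). For cyp-33E1 the log2 fold change was 2.87 (edgeR adjusted p = 0.17), and for cyp-33A1 it was 3.4 (edgeR adjusted p = 0.096). In cyp-33C, the log2 fold changes were −1.01 for cyp-33C7, 2.37 for cyp-33C8 and 2.81 for cyp-33C9. For cyp-33C3, with 0, 0 and 1 non-intestinal counts, the intestinal group mean was 2.34-fold the non-intestinal level of 3 counts. The edgeR adjusted p of these 4 genes ran from 0.13 to 0.62. Untested were cyp-33E3, with 14 and 29 counts in intestinal replicates 1 and 2 and 0 elsewhere, and 4 cyp-33C genes and cyp-33B1 with at most 27 counts in a library.

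The remaining clan 2 genes were cyp-36A1, cyp-23A1 and daf-9. The gene cyp-36A1 (C34B7.3), which acts in the worm's oxygen-sensing pathway of EGL-9 and HIF-1, had 0, 1.09 and 0 CPM in intestinal and 6.19, 5.40 and 2.71 CPM in non-intestinal libraries. The groups did not overlap, but the log2 fold change of −3.36 ± 1.55 SE was not called (adjusted p = 0.15, edgeR). It shares 147 exonic bases with figo-1 on the opposite strand, which was not called either (log2 fold change −1.34, edgeR adjusted p = 0.40). The untested cyp-23A1 had 0, 16 and 0 counts in intestinal and 3, 16 and 0 in non-intestinal libraries.

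The hormone-producing P450 daf-9 (T13C5.1, X chromosome, 6196927 to 6200823) was close to the floor. Its enzyme makes dafachronic acids, steroid hormones that bind the nuclear receptor DAF-12 and hold back the dauer stage, and it is known from the XXX neuroendocrine cells and the epidermis. It had 0, 3 and 0 counts in intestinal and 11, 0 and 0 counts in non-intestinal libraries, so that a difference was not detectable at this depth. Of 3 listed XXX markers, eak-3 and eak-4 summed to 0 to 1.38 CPM in intestinal and 0 to 1.59 CPM in non-intestinal libraries, and sdf-9 was not analysed here. Epidermal and seam markers summed to 70.3 to 73.5 CPM in intestinal and 263 to 336 CPM in non-intestinal libraries, with 1 of 5 tested genes called higher (13.5% of all tested genes) and 1 lower (7.64%). The higher call, that of elt-3, was lost with the replicate number as a block (edgeR adjusted p = 0.057, against 0.049) and whichever of the 6 libraries was left out (up to 0.12).

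The other genes of the dafachronic acid pathway comprised 8 listed genes, of which 5 were tested, 1 rose and 0 fell, where 13.5% of all tested genes rose. The gene that rose was daf-36, which encodes the Rieske oxygenase for the first step from cholesterol and is known from the intestine. It had 428, 383 and 0 counts in intestinal and 5, 0 and 0 counts in non-intestinal libraries, a log2 fold change of 6.12 ± 1.89 SE (adjusted p = 0.042, edgeR). With fewer than 10 counts in each non-intestinal library, it is a gene for which the filter favours a higher call. The groups overlap because intestinal replicate 3 had none, where 3 counts would be 2.40 CPM. Without non-intestinal replicate 2 its edgeR adjusted p was 0.086. The receptor gene daf-12 had 154, 87.4 and 71.9 CPM in intestinal and 70.0, 59.2 and 56.3 CPM in non-intestinal libraries (log2 fold change 0.75 ± 0.54 SE, adjusted p = 0.35 by edgeR). The median log2 fold change over the tested genes of this list was 0.75, against −0.34 over all tested genes.

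Among 13 listed regulators of P450 and stress genes, 11 were tested, 3 rose and 0 fell, where 13.5% of all tested genes rose. Of these 3, nhr-8 and nhr-176 had 10 or more counts in fewer than 2 non-intestinal libraries. Of the pair, nhr-176 passed the filter only through its intestinal counts. The median log2 fold change of the list was 0.84, against −0.34 over all tested genes. The nuclear receptor gene nhr-8, known in the worm for resistance to foreign compounds and for sterol balance, had 115, 55.8 and 47.1 CPM in intestinal and 1.11, 1.59 and 1.62 CPM in non-intestinal libraries. Its log2 fold change was 5.66 ± 0.79 SE (adjusted p = 0.0010, edgeR). The gene nhr-176, whose receptor is needed in the worm for induction of cyp-35D1 by thiabendazole, had 91, 91 and 4 counts against 1, 1 and 0. It was called higher (edgeR adjusted p = 0.018), and its intestinal group mean was 7.14-fold the non-intestinal level of 3 counts. The hypoxia factor gene hif-1 had 1120, 1070 and 698 CPM against 392, 396 and 123 CPM, a log2 fold change of 1.66 ± 0.51 SE (adjusted p = 0.041, edgeR). The call of nhr-176 was lost without intestinal replicate 1 or without non-intestinal replicate 1 or 2 (edgeR adjusted p up to 0.069), and that of hif-1 without intestinal replicate 1 or 2 (up to 0.11). With the replicate number as a block, mdt-15, a Mediator subunit gene needed for detoxification and fat metabolism genes, was called higher too (edgeR adjusted p = 0.028, against 0.19 without the block).

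In clan 3, the cyp-25A genes were set apart by cyp-25A2 (C36A4.2, chromosome III, 3835221 to 3837211). Its level was 160, 43.7 and 27.9 CPM in intestinal and 0.159, 1.09 and 1.08 CPM in non-intestinal libraries. Intestinal replicate 1 was by far the highest, but each intestinal library exceeded each non-intestinal one, and the log2 fold change was 6.65 ± 1.08 SE (adjusted p = 0.0022, edgeR). The adjacent cyp-25A1 had 30, 45 and 3 counts against 0 in each non-intestinal library, at least 3.34-fold higher. Its edgeR adjusted p was 0.022, or 0.050 and not called with the replicate number as a block. The third member, cyp-25A3, had 6.39, 4.14 and 7.19 CPM against 12.7, 0.499 and 2.71 CPM and was not called (log2 fold change 0.13 ± 1.2 SE, adjusted p = 0.95 by edgeR).

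The cyp-13A subfamily had 11 members, 4 of them tested and 1 called. That gene, cyp-13A7, reported in the worm to respond to rifampicin, had 32, 30 and 4 counts in intestinal libraries and 0 in each non-intestinal library, at least 3.39-fold higher. Its edgeR adjusted p was 0.024, and 0.052 with the block. The gene cyp-13A12, which acts downstream of HIF-1 in the worm's response to reoxygenation, had 19.2, 5.98 and 2.40 CPM against 2.22, 1.13 and 0 CPM (log2 fold change 2.94 ± 1.31 SE, adjusted p = 0.14 by edgeR). The groups did not overlap, though 2.40 and 2.22 CPM lie next to each other, and DESeq2 called the gene (DESeq2 adjusted p = 0.040). For cyp-13A5 the log2 fold change was 2.48 (edgeR adjusted p = 0.18), and for cyp-13A2 it was 0.97 (edgeR adjusted p = 0.42), with non-intestinal values that reached 37.9 CPM. Among untested members, cyp-13A6 had 140, 43 and 0 counts against 1, 0 and 0, and without a filter its edgeR adjusted p was 0.036. Its intestinal group mean was 6.30-fold the non-intestinal level of 3 counts. The gene cyp-13A3 had 24, 43 and 0 counts against 0 in each, and the other 5 untested cyp-13A genes had at most 19 counts in a library.

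The remaining clan 3 genes are the only ones of their subfamilies analysed here. The gene cyp-43A1 (E03E2.1) rose, with 13.1, 9.25 and 7.19 CPM in intestinal and 0.953, 0.680 and 0 CPM in non-intestinal libraries. The log2 fold change was 3.97 ± 1.21 SE (adjusted p = 0.039, edgeR), and under library totals alone the call was lost (edgeR adjusted p = 0.059). For cyp-13B1 the log2 fold change was 1.57 (edgeR adjusted p = 0.40).

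Clan 4 held 2 members that rose. The gene cyp-37A1 (F01D5.9, chromosome II, 14013826 to 14016965) had 70.2, 51.5 and 48.7 CPM in intestinal and 0, 1.45 and 0.541 CPM in non-intestinal libraries. The log2 fold change was 6.20 ± 1.11 SE (adjusted p = 0.0034, edgeR). It shares 28 exonic bases with F01D5.8 on the opposite strand, which was also called higher, with a fitted change of 4.74 (log2) and 29, 95 and 6 counts in the intestinal libraries, a call that held in none of the 5 fits without 1 library that tested it. The gene cyp-32B1 (Y5H2B.5) had 250, 204 and 12 counts in intestinal and 1, 1 and 0 counts in non-intestinal libraries (edgeR adjusted p = 0.0037). Its intestinal group mean was 18.8-fold the non-intestinal level of 3 counts. In cyp-29A, cyp-29A2 had 36.6, 19.4 and 4.79 CPM against 6.19, 4.44 and 1.08 CPM and overlapping groups (log2 fold change 2.34 ± 0.99 SE, adjusted p = 0.12 by edgeR), and DESeq2 called it (DESeq2 adjusted p = 0.034). The untested cyp-29A3, known in the worm to form epoxides from eicosapentaenoic acid, had 13, 45 and 2 counts against 0 in each non-intestinal library. Also untested were cyp-37B1, with 12, 11 and 0 counts against 0 in each, and cyp-42A1, with 0 in each intestinal and 13, 20 and 0 in the non-intestinal libraries. The genes cyp-29A4 and cyp-32A1 had 5 counts and 1 count in all.

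The cyp-31A genes went the other way. The near-identical genes cyp-31A2 and cyp-31A3 are known, with emb-8, for the lipid-rich barrier of the eggshell, and reads could have been divided between them, which leaves their separate values uncertain. For cyp-31A3 (Y17G9B.3, chromosome IV, 4761049 to 4762885) there were 0, 11 and 0 counts in intestinal and 69, 134 and 29 counts in non-intestinal libraries, or 0, 0.632 and 0 CPM against 11, 6.08 and 15.7 CPM. It fell by 5.19 ± 1.49 (SE) on the log2 scale (adjusted p = 0.031, edgeR), the 1 member called lower. The untested cyp-31A2 had 0, 1 and 0 counts against 10, 62 and 1, so both genes had nearly all of their counts outside the intestinal libraries. Germline markers moved in the same direction, with 5 of 7 tested genes called lower in intestinal cells, where 7.64% of all tested genes were. The log2 fold changes of these 5 ran from −4.17 for mex-3 to −7.82 for oma-2. The summed level of the list was 457 to 663 CPM in intestinal against 1310 to 1900 CPM in non-intestinal libraries, and 423 to 648 CPM of the intestinal sum came from car-1, which was not called (log2 fold change −0.34). Their part in the result was not tested.

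**Figure D4:**
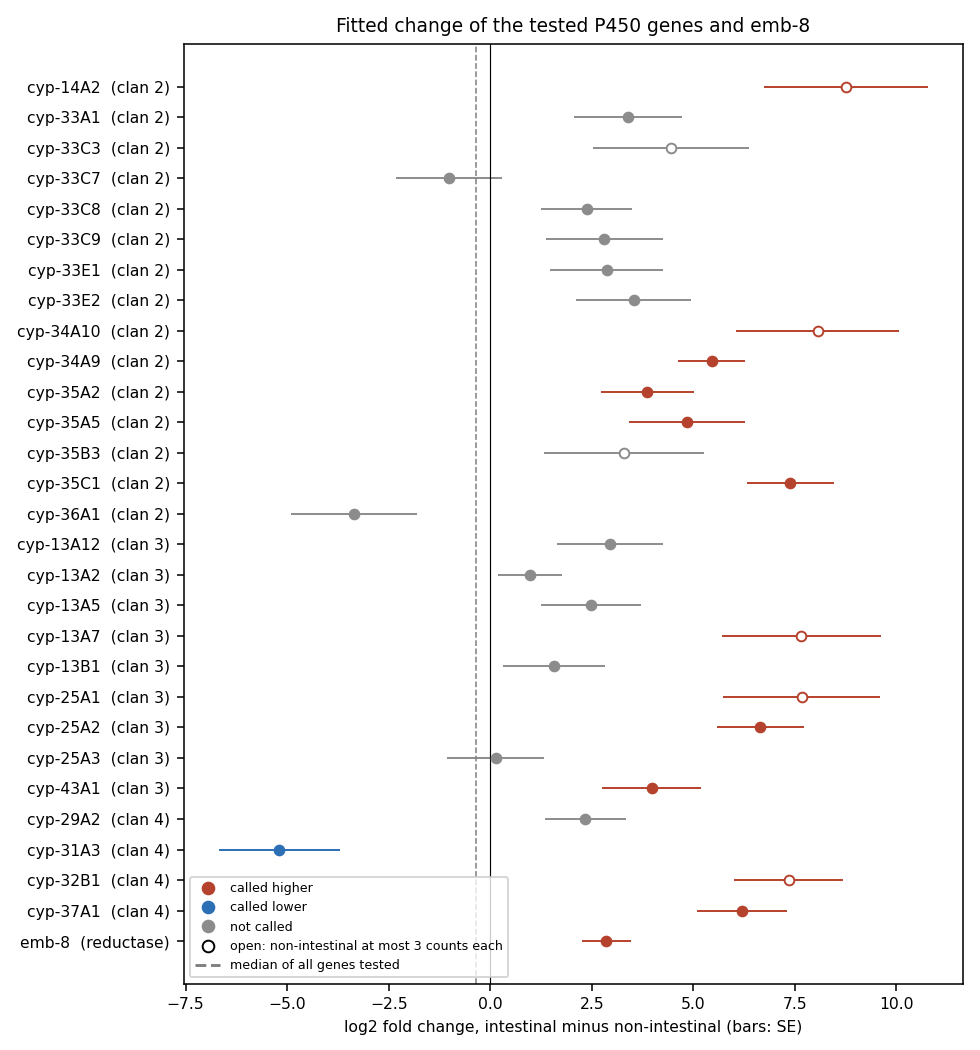
Fitted log2 fold change (intestinal minus non-intestinal, bars SE) of the 29 tested members by clan, with the median of all tested genes (−0.34) dashed; open symbols have at most 3 counts in each non-intestinal library, so their fitted size is no bound. The lowest value is −5.19 for cyp-31A3, and the highest among filled symbols is 7.39 for cyp-35C1.

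Of the 14 calls, those of cyp-35C1, cyp-34A9, cyp-25A2, cyp-37A1, cyp-32B1 and emb-8 held whichever of the 6 libraries was left out. With all libraries thinned to equal depth, cyp-35C1, cyp-37A1 and emb-8 were called, cyp-25A2 and cyp-32B1 were not tested, and the calls of cyp-34A9 (log2 fold change 3.85, edgeR adjusted p = 0.059) and cyp-35A2 (3.14, 0.11) were lost. The call of cyp-35A2 was lost without intestinal replicate 1 or 2 or non-intestinal replicate 2 (edgeR adjusted p up to 0.085). Those of cyp-35A5 and cyp-43A1 were lost without replicate 1 or 2 of either group (up to 0.14). The lower call of cyp-31A3 held only without intestinal replicate 2, and was lost in the other 5 fits (up to 0.097). For the 4 called genes with 0 counts in each non-intestinal library, leaving out a library often also removed the gene from the test. Of these, cyp-14A2 was called in 3 of 4 such fits and lost without non-intestinal replicate 2 (0.054), and cyp-34A10 was called in 2 of 3 and lost without non-intestinal replicate 1 (0.066). The genes cyp-25A1 and cyp-13A7 were called only without non-intestinal replicate 3, among 5 and 3 such fits, with edgeR adjusted p up to 0.078 and 0.077 in the others. Conversely, cyp-33C3 and cyp-35B3 were called without non-intestinal replicate 3 (0.049 and 0.031), and cyp-33C8 without non-intestinal replicate 2 (0.036).

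The position of the genes was not used to choose them. On WBcel235, the build named in the submitters' processing notes, 36 of the 65 members lie on chromosome V. Genes with at most 20000 bases between them, a limit set after the values were seen, formed 12 arrays, 7 of them on chromosome V, with 42 members. These arrays held 9 of the 12 P450 genes that rose, beside 42 of all 64 P450 members, a similar share. The largest array (chromosome V, 3936326 to 3972991) joins cyp-35A5, cyp-35B1 to cyp-35B3 and cyp-34A5 to cyp-34A10. Its called genes stand at the ends: cyp-35A5 at one, and cyp-34A9 and cyp-34A10 at the other, 161 bases apart. In 3 neighbouring pairs, picked after their values were seen, the counts differed. The gene cyp-34A8, 310 bases from cyp-34A9, had 3 counts over the intestinal and 17 over the non-intestinal libraries, where cyp-34A9 had 1927 and 49. On chromosome III, 326 bases part cyp-25A2, with 2726 counts over the intestinal and 27 over the non-intestinal libraries, from cyp-25A3, with 158 and 96. On chromosome V, cyp-32B1 lies 19 bases from cyp-33C12, which had 0 counts in intestinal and 14 in non-intestinal libraries. How reads that match several genes were counted is not given in the sources used here.

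**Figure D5:**
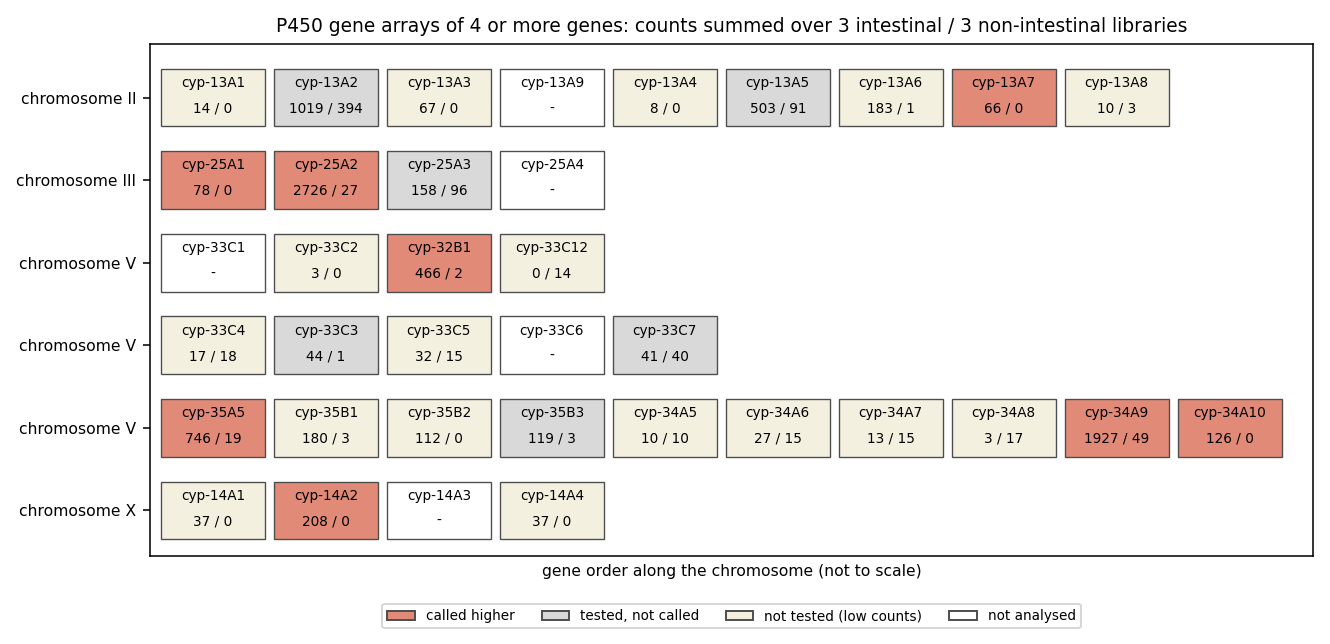
The 6 arrays of 4 or more neighbouring P450 genes in chromosomal order (not to scale), with counts summed over the 3 intestinal / 3 non-intestinal libraries in each box and colour for the call. In the chromosome V array of 10 genes, called genes stand at both ends. Between them, cyp-35B1, cyp-35B2 and cyp-35B3 have 180, 112 and 119 intestinal counts against 3, 0 and 3, and are untested or not called. The genes cyp-34A5 to cyp-34A8, also between them, have at most 27 counts over either group.

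The members that rose differed in which intestinal library held their highest level. This was replicate 2 for 7 of the 13, replicate 1 for 5 and replicate 3 for 1, whereas among all 1246 genes called higher it was replicate 1 for 61.6%, replicate 2 for 21.3% and replicate 3 for 17.2%. All 6 called clan 2 genes (cyp-14A2, cyp-34A9, cyp-34A10, cyp-35A2, cyp-35A5 and cyp-35C1) were highest in replicate 2, as was cyp-25A1. The genes cyp-25A2, cyp-32B1, cyp-37A1, cyp-43A1 and emb-8 were highest in replicate 1. The 2 leading replicates were close for some genes, such as cyp-14A2 with 6.88 and 7.07 CPM. This split was noticed in the values and was not tested.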

How the data were processed

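The authors deposited 1 table of raw counts, whole numbers per row and library with no normalization. Per the submitters' processing notes, STARsolo 2.7.10a and the builds WBcel235 and ce11 were used. Per the labels, libraries followed an adapted CEL-seq protocol, which reads 3′ ends, so counts need not scale with gene length. Whether counts are reads or molecular identifiers, and the strand setting, are not given in the sources used here. The labels call the 6 libraries biological replicates. Only the 14605 worm gene rows entered totals and tests. Left out were 825 rows that the table names RIT (0.376% to 0.782% of a library), 41 spike-in rows (at most 0.0142%) and the reporter. Names came from RefSeq (14387 rows matched), strands and exons from the Ensembl annotation of WBcel235.

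Genes were tested with edgeR 4.0.16 in R 4.3.3 (quasi-likelihood F test; robust, TMM, group as the only term) after filterByExpr (minimum count 10, total 15), with Benjamini-Hochberg adjustment over 9203 genes. SEs were derived from the fold change and F. CPM used TMM-scaled totals. Floors used 3 counts per library, averaged over the group. The common biological coefficient of variation was 0.731. The procedure was also run on simulated counts, drawn independently for each library, so that run cannot speak to effects shared by replicates. DESeq2 1.42.0 was an alternative.

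Named were all called members, those with the lowest adjusted p of each subfamily, daf-9 and emb-8, and called list genes with daf-36 and daf-12. Further members were named after their values were seen, to account for each. Members, lists and tests were chosen with earlier results of these data known. The replicate number entered as a block only in an alternative fit, since the labels do not say what equal numbers share. Deviations from the group means correlated at 0.278, 0.157 and 0.279 for equal numbers. For unequal numbers the correlations ran from −0.256 to 0.0695. This check rests on the data, and replicate 3 is the shallowest library in both groups.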

Additional observations from a re-analysis of the deposited data

How the results depend on the processing

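Of the members, 14 were called with RLE factors, 13 under library totals alone, 18 by DESeq2 (also cyp-13A12, cyp-29A2, cyp-33A1 and cyp-33E2) and 12 with the replicate number as a block, which took the calls of cyp-25A1 and cyp-13A7. The stricter filter called 10 of 12 tested members. These were 8 of the 14 called in the main fit, cyp-33E2 (edgeR adjusted p = 0.045) and cyp-35D1, which the main fit did not test. The rest of the 14 were not tested under the stricter filter. At equal depth 3 of 7 tested members were called, in 2 subfamilies, and at an adjusted p under 0.01 6 were, in 5 subfamilies. Leaving out 1 library gave from 6 (without intestinal replicate 1) to 18 members (without non-intestinal replicate 3), in 5 to 13 subfamilies. Without replicate 3 of both groups, an alternative added after seeing the data, 21 of 46 tested members were called. Of all genes, 3057 were called by DESeq2, 932 at equal depth and 842 at the stricter threshold, and 986 to 1913 without 1 library, and 2095 without replicate 3 of both groups. For the 4 pathway lists together, 7 genes were called, 3 at equal depth, 3 at the stricter threshold, and 4 to 8 without 1 library. The direction of cyp-25A3, not called in any fit, turned to −0.42 under library totals alone, to −0.07 without non-intestinal replicate 2, and to −0.28 without replicate 3 of both groups, and reached 2.34 without non-intestinal replicate 1. The other 28 tested members kept their direction in each fit that tested them. Mean shares with emb-8 included were 0.103% and 0.0201%, and the intestinal mean without cyp-35C1 was 0.0404%. The median log2 fold change of all tested genes was −0.34 under TMM and −0.84 under library totals alone. The planned count of a promoter motif was not run for lack of sequence. The cause of these changes was not tested, except that equal depth and the stricter filter test fewer genes.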

Other observations

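Some untested members had their counts in single libraries or in shallow ones. The gene cyp-29A4 had 5 counts in intestinal replicate 3 and 0 elsewhere. The gene cyp-34A1 had 8 counts in intestinal replicate 3 and 6 in non-intestinal replicate 2. The gene cyp-34A7 had 15 counts in non-intestinal replicate 3, 11 in intestinal replicate 1 and 2 in intestinal replicate 3. These genes were chosen after their values were seen.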
